A study of Mus musculus with 40 samples.

Results

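Cdk1, Cks2, Tpx2, Nusap1, Cdca8 and Ect2 are 6 genes whose proteins carry a cell through mitosis and cytokinesis. They were chosen with earlier results of these data known and taken by gene symbol from the probe annotation. They are 6 of the 9616 named genes measured. Marrow RNA of 20 mice of the inbred strain DBA/2 was set against 1 common reference pool on 2-colour arrays, with 2 arrays per mouse and 5 mice in each of 4 groups. The groups were untreated control mice, and mice given 83 mg/kg cyclophosphamide into the peritoneum and sampled after 1 day, 2 days or 5 days. Cyclophosphamide is a prodrug whose active metabolites cross-link DNA. The labels give no genotype other than the strain and no age, and they name each mouse of a group as an independently harvested biological replicate.

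Each value is the deposited log ratio of a mouse's RNA (Cy5) over the pool (Cy3), taken here as log2. The log base is not stated, and with natural logarithms every fold given here would be larger. The labels call the pool untreated marrow but also say in its treatment field that mice received cyclophosphamide. Differences between groups of mice do not depend on the pool, whereas the level of a gene against 0 does. A ratio says nothing of how abundant a gene is beside another gene. Since the pool is marrow too, ratios of marrow markers do not test the labelled tissue.

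Entry into mitosis is driven by the kinase Cdk1 bound to a cyclin. The spindle then attaches to the chromosomes under a checkpoint, the anaphase-promoting complex releases the sister chromatids, and a contractile ring under the small GTPase RhoA divides the cell. Many of these genes are transcribed most in G2 and M phase, so their RNA is commonly read as a mark of dividing cells. Dividing cells of marrow are mainly the precursors of red cells, granulocytes and B cells. In bulk marrow, fewer dividing cells and less RNA per cell cannot be told apart. Promoters of such genes often carry the cell cycle genes homology region (CHR), which MuvB complexes bind, and CCAAT boxes, which NF-Y binds.

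The promoters are shown here because all 6 genes fell on day 2. RefSeq windows from 250 bases before to 50 bases after the annotated start (build GRCm38.p6) were found for 5 of the 6 genes, all but Tpx2. The stretch from 180 bases before to 30 bases after the start is printed on the gene's own strand, with every TTTGAA or TTCGAA (CHR) and every CCAAT, each on either strand, in capitals. Ect2 has 2 annotated starts, and the downstream one is shown. The stretches are chr10:69352883-69353092 (minus strand) for Cdk1, chr13:51645052-51645261 (plus) for Cks2, chr2:119618118-119618327 (plus) for Nusap1, chr4:124936888-124937097 (minus) for Cdca8 and chr3:27153825-27154034 (minus) for Ect2.
Cdk1: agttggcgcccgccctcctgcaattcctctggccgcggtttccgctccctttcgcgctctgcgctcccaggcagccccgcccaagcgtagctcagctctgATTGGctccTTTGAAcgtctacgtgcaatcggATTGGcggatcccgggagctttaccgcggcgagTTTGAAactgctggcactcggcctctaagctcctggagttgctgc
Cks2: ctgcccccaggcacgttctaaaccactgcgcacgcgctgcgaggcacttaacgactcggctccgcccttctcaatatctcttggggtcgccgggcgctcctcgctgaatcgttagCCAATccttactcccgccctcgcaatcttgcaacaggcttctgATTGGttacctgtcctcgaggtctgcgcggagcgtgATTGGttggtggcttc
Nusap1: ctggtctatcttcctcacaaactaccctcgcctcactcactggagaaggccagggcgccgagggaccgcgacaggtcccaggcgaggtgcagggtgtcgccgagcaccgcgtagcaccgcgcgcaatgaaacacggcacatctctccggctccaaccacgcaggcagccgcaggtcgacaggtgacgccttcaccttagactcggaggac
Cdca8: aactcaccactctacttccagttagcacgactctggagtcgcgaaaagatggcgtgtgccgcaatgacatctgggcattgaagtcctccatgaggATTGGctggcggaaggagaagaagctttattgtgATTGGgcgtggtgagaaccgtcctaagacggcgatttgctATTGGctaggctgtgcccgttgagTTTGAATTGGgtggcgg
Ect2: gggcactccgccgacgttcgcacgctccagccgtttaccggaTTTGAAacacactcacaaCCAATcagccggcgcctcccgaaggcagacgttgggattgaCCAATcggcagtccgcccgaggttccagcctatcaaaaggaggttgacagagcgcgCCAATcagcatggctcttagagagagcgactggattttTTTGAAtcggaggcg

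TTTGAA was found in the windows of Cdk1, Cdca8 and Ect2. Of all 32851 RefSeq windows of this length, 17.9% held it. Counted from the start as base 1, it began at -71 and -15 in Cdk1, at 14 in Cdca8, and at -138 and 16 in Ect2. CCAAT, present in 37.4% of all windows, was found in Cdk1, Cks2, Cdca8 and Ect2, and each of these windows held at least 2 copies, as 11.7% of all windows did. In Cdca8 the last CCAAT, read on the opposite strand, shares a base with the TTTGAA before it. Nusap1 held none of the 3 motifs in its window, and TTCGAA, held by 1.6% of windows, was in no window of the 5 genes. Among 160 genes of 7 mitosis lists that have a window, 43.1% held TTTGAA, against 20.2% of all 27025 genes with one. CCAAT was in 55.6% of the genes of the lists, against 41.1% of all genes. These are matches of letters only.

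Each of the 6 genes had 1 probe, with a value on all 40 arrays. Arrays as a whole gave values for 4079 to 7977 of 13443 probes, and their medians lay within 0.015 of 0. The 2 arrays of a mouse correlated at 0.683 to 0.957 over the probes with a value on both. By its mean correlation with the other mice of its own group, control mouse 4 stood lowest at 0.284, followed by day 1 mouse 1 at 0.372. Without either of these mice, the number of the 6 genes called on day 1 against control (5) and on day 2 against control (6) was the same as with all mice. Values shared by many probes of an array, as spots at the scanner's limit would give, touched the 6 genes once, for Tpx2 on 1 array of control mouse 2 (-0.259).

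**Figure D1:**
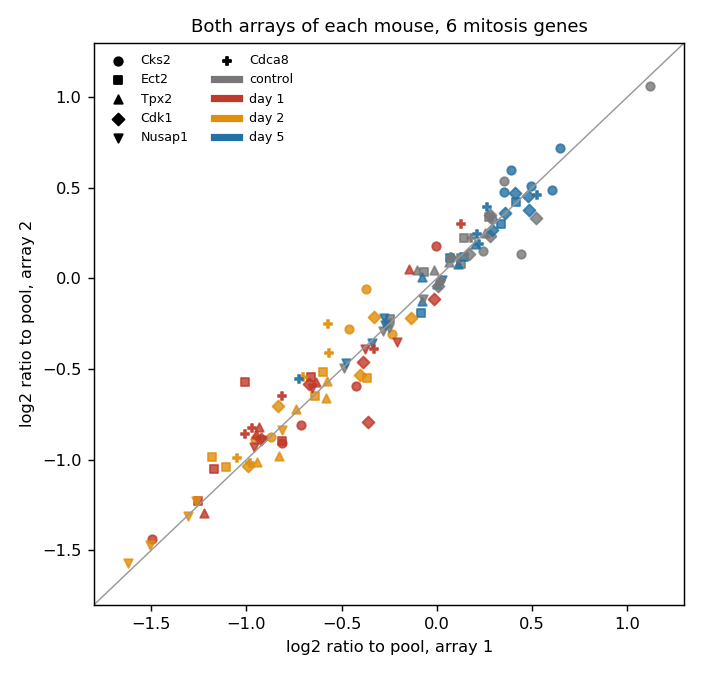
Log2 ratio to the pool on array 1 (x axis) and array 2 (y axis) of each of the 20 mice, with 1 marker shape per gene, 1 colour per group and the line of equal values. Points lie close to the line, and the widest gap is 0.435 for Ect2 in day 1 mouse 2.

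Between the 2 arrays of a mouse, the median absolute difference ran from 0.026 for Nusap1 to 0.096 for Cks2, below every called fold change of the 6 genes. The widest gap was 0.431 for Cdk1 (day 1 mouse 5), 0.311 for Cks2 (day 2 mouse 5), 0.201 for Tpx2 (day 1 mouse 1), 0.142 for Nusap1 (day 1 mouse 2), 0.316 for Cdca8 (day 2 mouse 4) and 0.435 for Ect2 (day 1 mouse 2).

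The study set marrow 1, 2 and 5 days after the drug against untreated marrow. On day 1, 5 of the 6 genes fell against control, and on day 2 all 6 fell, by 1.7-fold to 2.02-fold. On day 5 none of the 6 differed from control past the threshold, and all 6 were higher than on day 2. Over all 4 groups the moderated F test of limma called 6 of 6, as it did 30.7% of features, with the smallest adjusted p for Ect2 (5.37e-06). Pairs of groups were tested with limma over 5297 genes and unnamed probes, with Benjamini-Hochberg adjustment over all of them and calls at an adjusted p under 0.05. All comparisons with control share the same 5 control mice. Fold changes are given with the standard error of the fit, for 5 mice per group unless fewer are stated.

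**Figure D2:**
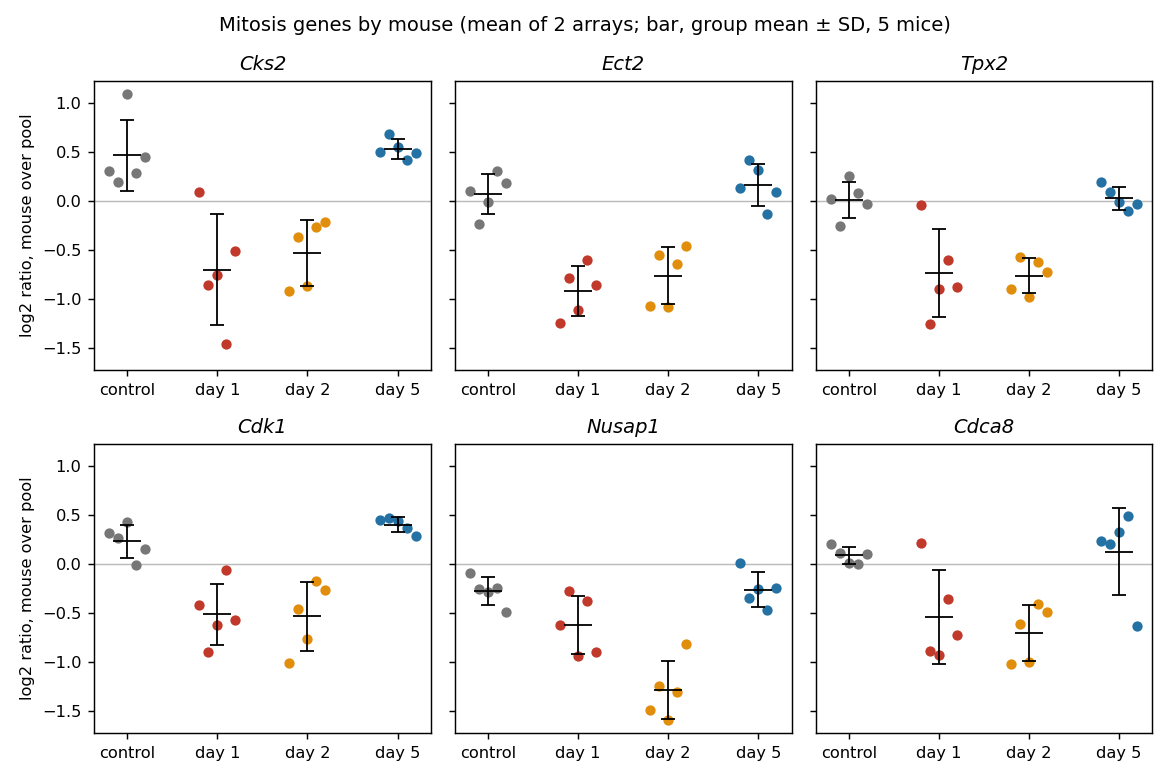
Log2 ratio to the pool (y axis) of each gene in every mouse (points, mean of 2 arrays), in control, day 1, day 2 and day 5 order, with bars for the group mean ± SD of 5 mice. All day 2 points lie below all control points in every panel, and the day 5 points lie around the control level except for Cdca8 in day 5 mouse 5, at -0.639.

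Cdk1 is the kinase that starts mitosis. Its log2 ratios were 0.314, 0.257, 0.427, -0.017 and 0.15 in control mice 1 to 5, -0.424, -0.904, -0.625, -0.064 and -0.576 on day 1, -1.012, -0.466, -0.771, -0.177 and -0.27 on day 2, and 0.441, 0.467, 0.431, 0.359 and 0.279 on day 5. All day 1 and day 2 mice were below all control mice, with day 1 mouse 4 and day 2 mouse 4 the closest to them. The log2 fold change against control was -0.74 ± 0.15 on day 1 (limma, adjusted p = 0.00185) and -0.77 ± 0.15 on day 2 (limma, adjusted p = 0.00127). On day 5 it was 0.17 ± 0.15, with an adjusted p of 0.829 in limma and a 95% interval of -0.14 to 0.48, and 5 of 5 mice were above the control mean. Day 5 mice were also the tightest group for Cdk1.

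Cks2 is a small subunit of cyclin-dependent kinase complexes that docks phosphorylated substrates. Per mouse, Cks2 had log2 ratios of 0.308, 0.197, 1.09, 0.29 and 0.446 in control mice, 0.089, -0.86, -0.76, -1.465 and -0.508 on day 1, -0.919, -0.368, -0.873, -0.271 and -0.215 on day 2, and 0.503, 0.684, 0.546, 0.416 and 0.494 on day 5. Neither the day 1 nor the day 2 mice overlapped with control, although day 1 mouse 1 came near, and control mouse 3 stood above every other mouse. On day 1 its log2 fold change was -1.17 ± 0.21 (limma, adjusted p = 0.000894), 2.25-fold. Only 5 of the 5297 features had a lower fold change on that day. On day 2 the log2 fold change was -1.0 ± 0.21 (limma, adjusted p = 0.00222), and on day 5 it was 0.06 ± 0.21 (limma, adjusted p = 0.973; 95% interval -0.37 to 0.49). With each mouse left out in turn, the day 1 value ran from -1.36 (without day 1 mouse 1) to -0.98 (without day 1 mouse 4).

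Tpx2 activates Aurora A kinase and promotes microtubule growth around the chromosomes. Tpx2 had log2 ratios of 0.015, -0.252, 0.251, 0.076 and -0.031 in control mice, -0.046, -1.258, -0.904, -0.603 and -0.878 on day 1, -0.903, -0.571, -0.98, -0.623 and -0.73 on day 2, and 0.194, 0.095, -0.015, -0.101 and -0.034 on day 5. Day 1 overlapped with control only through day 1 mouse 1, and day 2 did not overlap with it. The log2 fold change was -0.75 ± 0.16 on day 1 (limma, adjusted p = 0.00242), and it ran from -0.92 (without day 1 mouse 1) to -0.62 (without day 1 mouse 2) with each mouse left out in turn. It was -0.77 ± 0.16 on day 2 (limma, adjusted p = 0.00158) and 0.02 ± 0.16 on day 5 (limma, adjusted p = 0.986; 95% interval -0.3 to 0.34).

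Nusap1 binds and bundles spindle microtubules near chromosomes. Its log2 ratios were -0.092, -0.261, -0.286, -0.253 and -0.492 in control mice, -0.629, -0.282, -0.943, -0.382 and -0.904 on day 1, -1.491, -1.245, -1.594, -1.308 and -0.823 on day 2, and 0.009, -0.349, -0.264, -0.471 and -0.246 on day 5. All 5 day 2 mice were below every control mouse, whereas day 1 mice 2 and 4 lay within the control range. It was the one gene of the 6 without a call on day 1, at a log2 fold change of -0.35 ± 0.14 (limma, adjusted p = 0.0881; 95% interval -0.65 to -0.06). On day 2 it was -1.01 ± 0.14 (limma, adjusted p = 6.95e-05), 2.02-fold, and on day 5 it was 0.01 ± 0.14 (limma, adjusted p = 0.989; 95% interval -0.28 to 0.31). Of 11 alternative settings, 1 called the day 1 value, with all 40 arrays and the mouse as a random block (log2 fold change -0.35, limma, adjusted p = 0.0174). With each mouse left out in turn, 1 of 20 fits called it, without day 1 mouse 2 (-0.44, limma, adjusted p = 0.0478). The adjusted p in limma reached 0.18 under the other settings and 0.226 with a mouse left out.

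Cdca8 (borealin) is a subunit of the chromosomal passenger complex, which corrects attachments of chromosomes to the spindle and acts again at cytokinesis. Its log2 ratios were 0.201, 0.113, 0.007, -0.002 and 0.097 in control mice, 0.215, -0.896, -0.934, -0.359 and -0.729 on day 1, -1.02, -0.621, -1.001, -0.412 and -0.491 on day 2, and 0.228, 0.205, 0.328, 0.491 and -0.639 on day 5. Day 1 mouse 1 was above every control mouse, while the other 4 day 1 mice were below all of them. Day 5 mouse 5 lay within the range of day 2. The log2 fold change on day 1 was -0.62 ± 0.2 (limma, adjusted p = 0.0311), and it ran from -0.81 (without day 1 mouse 1) to -0.53 with each mouse left out in turn. This call was lost when only array 2 of each mouse was used (-0.57, adjusted p = 0.0515) and when any of control mice 1, 2 and 5 or day 1 mice 2, 3 and 5 was left out, with an adjusted p of up to 0.0947. On day 2 the log2 fold change was -0.79 ± 0.2 (limma, adjusted p = 0.00748), and on day 5 it was 0.04 ± 0.2 (limma, adjusted p = 0.98; 95% interval -0.37 to 0.45).

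Ect2 is the exchange factor that activates RhoA at the cleavage furrow. Its log2 ratios were 0.101, -0.234, -0.014, 0.306 and 0.182 in control mice, -1.242, -0.791, -1.109, -0.601 and -0.856 on day 1, -1.073, -0.555, -1.08, -0.643 and -0.458 on day 2, and 0.129, 0.417, 0.318, -0.138 and 0.091 on day 5. Every day 1 and day 2 mouse was below every control mouse. Day 1 mouse 1, which had the highest Cks2, Tpx2 and Cdca8 of day 1, had the lowest Ect2. The log2 fold change was -0.99 ± 0.15 on day 1 (limma, adjusted p = 0.000295), -0.83 ± 0.15 on day 2 (limma, adjusted p = 0.000541) and 0.1 ± 0.15 on day 5 (limma, adjusted p = 0.923; 95% interval -0.21 to 0.4).

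**Figure D3:**
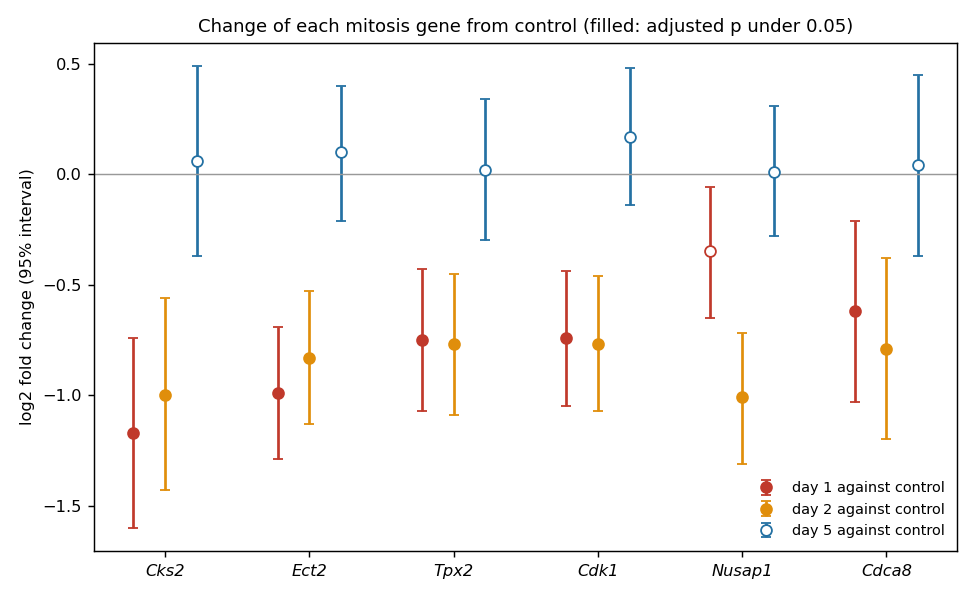
Log2 fold change against control (y axis) of each gene on day 1, day 2 and day 5, as points with 95% intervals from limma, filled where the adjusted p is under 0.05. The day 1 and day 2 points lie below 0 and are filled, except the open day 1 point of Nusap1 at -0.35, and the day 5 intervals all span 0.

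The 6 genes were chosen with earlier results of these data known, so their counts beside the shares of all features are no separate support. Counted together, 5 of the 6 genes were called lower on day 1, when 8.38% of all features were. Their median log2 fold change was -0.75, beside -0.01 for all features, and in 3 of the 6 (Cdk1, Cks2 and Ect2) no day 1 mouse overlapped with a control mouse, as in 6.1% of all features in this direction. On day 2, 6 of 6 were called lower, when 9.61% of features were, with a median of -0.81 beside -0.02 for all features. All 6 were without overlap on that day, as 9.4% of features were in this direction. On day 5, 0 of 6 were called by limma, and 0 had an unadjusted p under 0.05, while 2.62% of all features were called in either direction. Their median on day 5 was 0.05, beside 0.01 for all features. The intervals on day 5 leave room for differences of up to 0.49 on the log2 scale.

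Between the treated days, Nusap1 passed the threshold and the other 5 genes did not, and the genes were not tested against each other. Day 2 against day 1, the Nusap1 log2 fold change was -0.66 ± 0.14 (limma, adjusted p = 0.0104; 95% interval -0.96 to -0.37), although the day 2 and day 1 mice overlapped. It was the one gene of 6 called lower, and 0.736% of all features were. With quantile normalization between arrays it was -0.51 ± 0.14 (limma, adjusted p = 0.0636). For the other 5 genes the value lay between -0.17 ± 0.2 for Cdca8 and 0.17 ± 0.21 for Cks2, with adjusted p of 0.744 or more in limma. Their 95% intervals together run from -0.58 to 0.6, and no difference between the 2 days was detectable for them at 5 mice per group. By group mean, Cks2 and Ect2 ran in the order day 1, day 2, control and day 5 from low to high, and the other 4 genes in the order day 2, day 1, control and day 5. In the 5 genes other than Nusap1, neither day 2 and day 1 nor day 5 and control, which are neighbours in these orders, differed past the threshold. In Nusap1 the neighbours day 1 and control, and day 5 and control, did not.

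Day 5 against day 2, all 6 genes rose, when 10.3% of features were called higher. The log2 fold change was 1.06 ± 0.21 for Cks2 (limma, adjusted p = 0.000832), 1.03 ± 0.14 for Nusap1 (limma, adjusted p = 2.18e-05) and 0.79 ± 0.16 for Tpx2 (limma, adjusted p = 0.000791). The mice of these days did not overlap except for Cdca8, and non-overlap in this direction was seen in 9.67% of features. Day 5 against day 1, 5 of 6 rose, when 12.2% of features did, and 3 of the 6 did not overlap, as 8.21% of features did not in this direction. Here Nusap1 was again not called at 0.36 ± 0.14 (limma, adjusted p = 0.0642). Cks2 had 1.23 ± 0.21 (limma, adjusted p = 0.000163) and Ect2 had 1.08 ± 0.15 (limma, adjusted p = 1.55e-05).

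Mice of one group differed among themselves. Averaged over the 6 genes, the log2 ratios of mice 1 to 5 were 0.141, -0.03, 0.246, 0.066 and 0.059 in control mice, -0.34, -0.832, -0.879, -0.579 and -0.742 on day 1, -1.069, -0.638, -1.05, -0.572 and -0.498 on day 2, and 0.251, 0.253, 0.224, 0.093 and -0.009 on day 5. Day 2 mice 1 and 3 had the 2 lowest values of their group for 6 of 6 genes. These 2 mice also had the fewest probes with a value on day 2 (5585 and 5043), and the part of this in their low values was not tested. Nusap1 was the lowest of the 6 ratios in 5 of 5 control mice, 5 of 5 day 2 mice and 4 of 5 day 5 mice, which depends on its level in the pool. Over the 20 mice, which share the group differences, the 15 pairs of genes correlated at 0.582 (Cks2 and Nusap1) to 0.884 (Tpx2 and Cdk1), with a median of 0.772. With group means removed, the correlations ran from -0.03 (Cks2 and Ect2) to 0.644 (Tpx2 and Cdca8), with a median of 0.368.

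Other genes of the same machinery were taken, also with earlier results of these data known, from 7 lists of 192 genes that leave out the 6. Of these, 120 were on the array and 50 were measured in at least 3 mice of every group. Aurkb, Birc5, Incenp, Ccnb2 and Plk1 were among those measured in too few mice. On day 1, 17 of the 50 fell (34%) and 1 rose, when 8.38% of all features fell and 10.7% rose, with a median log2 fold change of -0.3, and 32 were not called. On day 2, 16 fell (32%) and 1 rose, when 9.61% of all features fell and 9.61% rose, with a median of -0.28. On day 5, 0 of 50 were called by limma, when 2.62% of all features were called either way, 1 of the 50 had an unadjusted p under 0.05, and the median was -0.01.

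Kinetochore and checkpoint genes held most of the falls, and with 13 and 10 genes these lists also made up much of the 50 measured. Of all features, 8.38% fell on day 1 and 9.61% on day 2. Of 13 centromere and kinetochore genes, 6 fell on day 1 (median -0.35) and 7 on day 2 (median -0.42). Among them Cenpk, a subunit of the inner kinetochore network, fell by 0.81 ± 0.13 on the log2 scale on day 1 and 0.89 ± 0.13 on day 2 (limma, adjusted p = 0.000474 and 7.35e-05). Nuf2, which binds microtubules in the Ndc80 complex, fell by 0.68 ± 0.12 and 0.76 ± 0.12 (limma, adjusted p = 0.000817 and 0.000204). Its partner Spc24, with a value in 4 control mice, fell by 0.74 ± 0.18 and 0.88 ± 0.18 (limma, adjusted p = 0.00717 and 0.00181). Of 10 genes of the spindle checkpoint and the anaphase-promoting complex, 6 fell on day 1 (median -0.48) and 3 on day 2 (median -0.32). The checkpoint kinase Ttk, measured in 4, 3 and 4 mice of day 1, day 2 and control, had -0.53 ± 0.11 on day 1 (limma, adjusted p = 0.00329) and -0.28 ± 0.12 on day 2 (limma, adjusted p = 0.103). Anapc5, a subunit of the complex, fell by 0.48 ± 0.13 and 0.44 ± 0.13 (limma, adjusted p = 0.0119 and 0.0165).

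Of 7 spindle and motor genes, 2 fell on each of these days, when 8.38% and 9.61% of all features fell. The microtubule-binding Hmmr fell by 0.43 ± 0.11 and 0.38 ± 0.11 (limma, adjusted p = 0.0107 and 0.0212). Ran, the GTPase that releases Tpx2 from importins at the chromosomes, had -0.73 ± 0.16 on day 1 (limma, adjusted p = 0.00342) and -0.08 ± 0.16 on day 2 (limma, adjusted p = 0.784), and it was the 1 gene of the 50 that differed between these days, at 0.65 ± 0.16 for day 2 against day 1 (limma, adjusted p = 0.0269). The kinesin Kif11, measured in 4, 5 and 4 mice of day 1, day 2 and control, had -0.49 ± 0.23 and -0.68 ± 0.21 (limma, adjusted p = 0.137 and 0.0306). Its log2 ratios in day 2 mice 1 to 5 were uneven, at -1.18, -0.143, -1.042, -0.092 and -0.127. Of the 2 measured genes of the chromosomal passenger and shugoshin list, Sgo1, which protects centromeric cohesion, had -0.4 ± 0.17 and -0.75 ± 0.17 (limma, adjusted p = 0.0968 and 0.00329).

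Of all features, 8.38% fell and 10.7% rose on day 1, and 9.61% fell and 9.61% rose on day 2. Of 6 condensin and cohesin genes, 2 fell on both days. Smc4, a core condensin subunit, fell by 0.77 ± 0.1 and 0.87 ± 0.1 (limma, adjusted p = 9.22e-05 and 8.11e-06). Esco2, which acetylates cohesin in S phase, fell by 0.9 ± 0.2 and 0.97 ± 0.2 (limma, adjusted p = 0.00427 and 0.00212). Of 10 genes of the cytokinesis list, 1 fell and 1 rose on each day, near these shares of all features, with medians of -0.04 and -0.2. The 1 that rose was Septin6, a filament-forming GTPase that is not limited to dividing cells, at 0.56 ± 0.14 and 0.61 ± 0.14 (limma, adjusted p = 0.00731 and 0.00353). The gene that fell was Cdca4 on day 1 and Cep55, which encodes a midbody protein, on day 2. Cdca4 had -0.43 ± 0.12 and -0.29 ± 0.12 (limma, adjusted p = 0.0132 and 0.0804). Cep55 had -0.33 ± 0.12 and -0.38 ± 0.12 (limma, adjusted p = 0.0521 and 0.0281). Of 2 mitotic entry genes that could be tested, neither was called or had an unadjusted p under 0.05 in limma, and Foxm1, a transcription factor of G2 genes, had 0.25 ± 0.12 and 0.17 ± 0.12 (limma, adjusted p = 0.17 and 0.37).

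**Figure D4:**
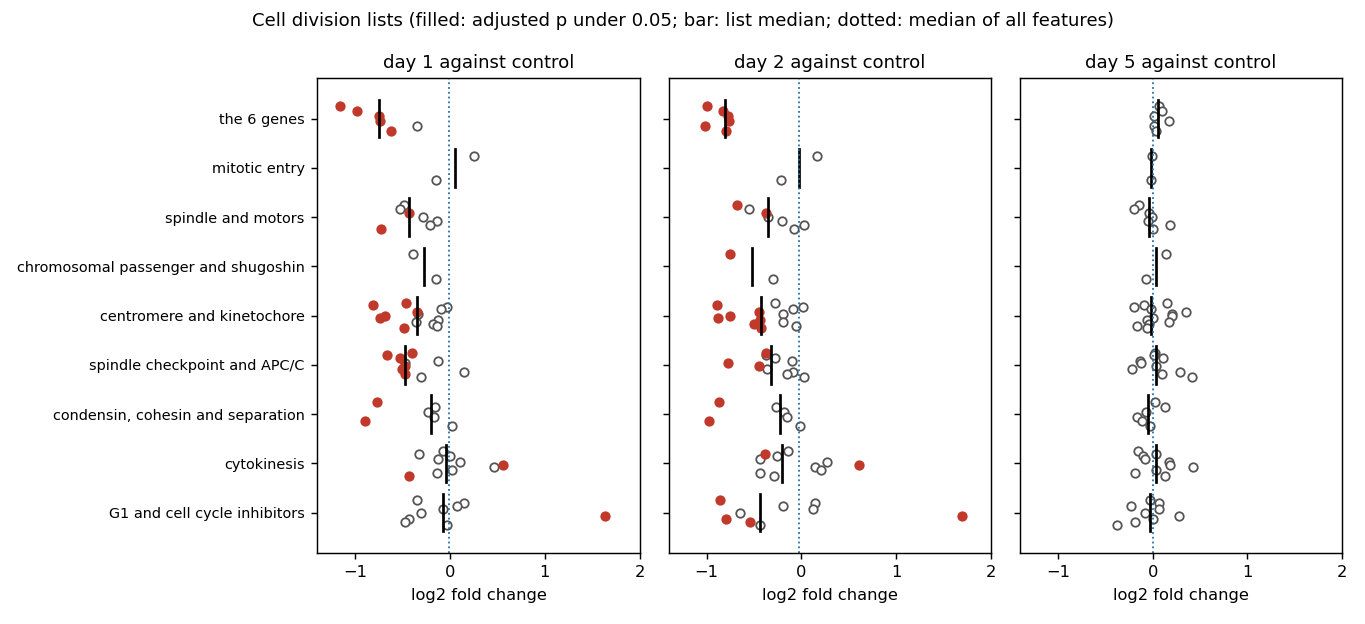
Log2 fold change against control (x axis) of each measured gene of the 7 mitosis lists, of the list of G1 regulators and of the 6 genes (rows), on day 1, day 2 and day 5 (panels), with filled points at an adjusted p under 0.05, bars at the list median and a dotted line at the median of all features. On days 1 and 2 the 6 genes and the kinetochore list lie mostly left of 0, Cdkn1a lies far right at 1.63 and 1.7, and on day 5 all points are open.

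On day 1, 8.38% of all features fell and 10.7% rose, and on day 2, 9.61% fell and 9.61% rose. Of 9 genes that govern G1 or inhibit cyclin-dependent kinases, 1 rose on each of these days, near these shares, and 3 fell on day 2. The gene that rose was Cdkn1a, which encodes p21, an inhibitor of these kinases and a target of p53. Its log2 ratios were -0.141, 0.065, -0.116, -0.162 and -0.066 in control mice, 1.966, 0.291, 2.335, 1.638 and 1.518 on day 1, 1.173, 0.941, 1.601, 2.305 and 2.034 on day 2, and -0.002, 0.209, 0.127, 0.29 and 0.323 on day 5. All day 1 and day 2 mice were above all control mice, and day 1 mouse 2 was within the range of day 5. The log2 fold change was 1.63 ± 0.26 on day 1, 1.7 ± 0.26 on day 2 and 0.27 ± 0.26 on day 5 (limma, adjusted p = 0.000508, 0.000144 and 0.851). Ccnd3, a D-type cyclin with a value in 3 day 1 mice and 4 control mice, had -0.35 ± 0.15 on day 1 and -0.86 ± 0.13 on day 2 (limma, adjusted p = 0.109 and 0.000214). Mki67 and Top2a, common marks of dividing cells, were measured in too few mice.

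Likeness to the 6 genes was measured by the correlation of each of 2254 named genes, those with a value in all 20 mice, with the mean of the 6. The highest were Nuf2 (r = 0.955), Asf1b (0.946), Smc4 (0.938), Gin1 (0.93), Ube2t (0.928), Dek (0.924), Pcna (0.919) and Hmgn2 (0.914). Asf1b is a histone chaperone and Pcna the replication clamp, both at work in S phase. Asf1b had log2 fold changes of -0.73 ± 0.18, -1.25 ± 0.18 and 0.2 ± 0.18 on days 1, 2 and 5 (limma, adjusted p = 0.00803, 7.35e-05 and 0.839), and Pcna had -0.92 ± 0.13, -0.81 ± 0.13 and -0.1 ± 0.13 (limma, adjusted p = 0.00028, 0.000291 and 0.909). At the other end stood Fhl1 (r = -0.937), Scnm1 (-0.932), Mtmr9 (-0.926) and the glucose transporter gene Slc2a1 (-0.923), and Fhl1 had 0.83 ± 0.14 on day 1 (limma, adjusted p = 0.000608). Taken one by one, the closest gene was Nuf2 for Cdk1 (0.941), Znrd1 for Cks2 (0.922), Anapc5 for Tpx2 (0.927), Ska2, a kinetochore gene, for Nusap1 (0.906), Sec13 for Cdca8 (0.891) and Rpa3, a subunit of the single-stranded DNA binding complex RPA, for Ect2 (0.948). Ska2 was called on day 2 but not on day 1 (-0.5 ± 0.1 and -0.19 ± 0.1; limma, adjusted p = 0.00194 and 0.218). All these correlations share the 20 mice and the differences between the 4 groups. The genes were picked by them, so the fold changes given here for these genes are no separate support for their likeness.

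**Figure D5:**
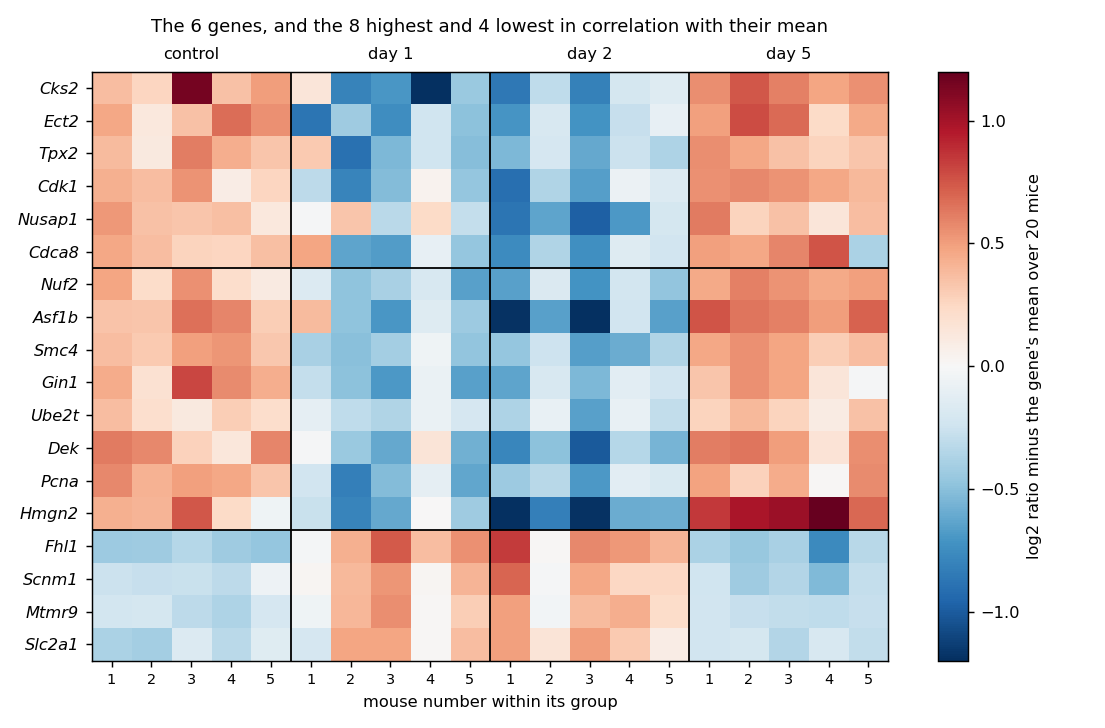
Log2 ratio minus the gene's mean over 20 mice (colour) for the 6 genes and for the 8 genes with the highest and 4 with the lowest correlation with their mean (rows), in each mouse (columns, by group). Most mice of days 1 and 2 are low, and most control and day 5 mice high, in the rows of the 6 genes and the 8 most alike, with exceptions such as Nusap1 on day 1 (0.333 in mouse 2), Cdca8 in day 1 mouse 1 (0.476) and Cdca8 in day 5 mouse 5 (-0.378). The rows of Fhl1, Scnm1, Mtmr9 and Slc2a1 run mostly the other way.

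All marker lists of marrow cell types but that of T and NK cells also held genes called against control. Their part in the results of the 6 genes was not tested. Of all features, 8.38% fell and 10.7% rose on day 1, and 9.61% fell and 9.61% rose on day 2. On day 5, 1.72% fell and 0.906% rose. The erythroid counts on day 1, at 1 of 9 genes each way, lay near these shares. For B cell precursors, 2 of 2 measured genes fell on days 1, 2 and 5, with medians of -1.06, -1.28 and -1.42. The list means of single mice ran from -0.077 to 0.559 in control mice, -1.034 to -0.09 on day 1, -1.973 to -0.635 on day 2 and -1.816 to -0.336 on day 5. For granulocyte precursors, 2 of 2 fell on day 1 (median -0.9) and 0 of 2 were called on day 2 by limma, with 0 at an unadjusted p under 0.05 (median -0.07), while 1 of 2 rose on day 5 (median 0.97), with list means of 0.229 to 0.82 in control mice, -0.947 to 0.176 on day 1, 0.177 to 0.682 on day 2 and 1.159 to 1.92 on day 5. For erythroid cells, 1 of 9 fell and 1 rose on day 1 and 4 fell on day 2 (medians -0.38 and -0.6), with list means of -0.401 to -0.168 in control mice, -0.895 to -0.248 on day 1, -1.014 to -0.552 on day 2 and -1.334 to -0.133 on day 5. Of 5 macrophage genes, 2 rose on day 1 and 5 on day 2 (medians 0.48 and 1.19), with list means of -0.387 to 0.2 in control mice, 0.373 to 0.804 on day 1, 0.662 to 1.42 on day 2 and -0.621 to -0.156 on day 5. Of 7 late neutrophil genes, 1 rose on day 1, 4 fell on day 2 and 2 fell on day 5 (medians -0.18, -1.53 and 0.07). Of 3 monocyte genes, 2 fell on day 1, 1 fell on day 2 and 2 rose on day 5 (median 0.62), and of 3 mature B cell genes, 2 rose on day 1, 1 rose on day 2 and 3 fell on day 5. Of 5 endothelial, 4 megakaryocyte and 3 stromal genes, 2, 1 and 1 rose on day 1 and 3, 2 and 2 on day 2, and of 2 T and NK cell genes none was called by limma against control on days 1, 2 and 5, with 1 at an unadjusted p under 0.05 on day 5. The values are ratios to the pool, so none of them shows a cell type to be absent.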

How the data were processed

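The authors deposited 1 log2 ratio per probe and array (log base assumed), which per the labels sets Cy5-labelled mouse RNA over a Cy3-labelled reference. Scanner, background correction, normalization and the rule behind blank values are not stated in the labels or headers, and a normalization that centres arrays would remove a shift of all genes. Of 13443 probes, 10032 had 1 gene symbol in the platform annotation, of which 10028 matched a RefSeq gene. The 2 arrays of a mouse were averaged, then probes of one gene. Features with a value in at least 3 mice of every group were tested (5297, of which 3926 named) in limma 3.58.1 under R 4.3.3, with all 20 mice, 1 mean per group, empirical Bayes moderation and Benjamini-Hochberg adjustment. The 5 mice per group limit the precision. The genes, lists and alternatives were chosen with earlier results of these data known. Named genes were the 6, up to 4 per list by smallest p on day 1 or 2 among those called (the smallest p where none was), Cdkn1a, Mki67, Top2a and those most like or unlike the 6. Alternatives changed the filter, the probe, the arrays used, the scaling, the moderation, the values shared by many probes, a replicate block and each mouse. The steps were tested on simulated data.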

Additional observations from a re-analysis of the deposited data

Results flagged for a closer look

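In 2 of 24 sets of 5 mice, 1 mouse lay far from the others by Dixon's test, whose critical value at 5 samples is 0.71 and which marks about 1 in 20 groups by chance. Cks2 in control mouse 3 was at 1.09, with the next control mouse at 0.446 (ratio 0.721). Cdca8 in day 5 mouse 5 was at -0.639, with the next day 5 mouse at 0.205 (ratio 0.747). Without that mouse the Cdca8 log2 fold change for day 5 against control was 0.23, in place of 0.04.

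Changes from control differed between days by the direct limma test of one day against another. Nusap1 was lower on day 2 than on day 1 by a log2 fold change of -0.66, with 5 of 5 day 2 mice below the day 1 mean. Day 5 against day 1, the values were 0.91 for Cdk1, 1.23 for Cks2, 0.77 for Tpx2, 0.66 for Cdca8 and 1.08 for Ect2. Day 5 against day 2, they were 0.93 for Cdk1, 1.06 for Cks2, 0.79 for Tpx2, 1.03 for Nusap1, 0.83 for Cdca8 and 0.93 for Ect2. The adjusted p of these 12 values lay between 1.55e-05 and 0.0167 in limma.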

How the results depend on the processing

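The number of the 6 genes called stayed within 1.5 times under all 11 alternatives other than leaving out a mouse, except for day 2 against day 1, where quantile normalization gave 0 in place of 1 (the cause was not tested). With all 40 arrays and the mouse as a random block, 210 features were called on day 5 against control in place of 139, and 241 on day 2 against day 1 in place of 111. With each mouse left out in turn, 4 to 5 of the 6 genes were called on day 1, 6 on day 2, 0 on day 5, 1 on day 2 against day 1, 4 to 6 on day 5 against day 1 and 6 on day 5 against day 2. The features called ran from 611 (without day 1 mouse 3) to 1313 on day 1 against control, 592 (without day 2 mouse 1) to 1123 on day 2, 100 to 161 on day 5, 77 to 167 (without day 5 mouse 4) on day 2 against day 1, 970 to 1574 on day 5 against day 1 and 816 to 1211 on day 5 against day 2. Without day 1 mouse 2 the count on day 1 was 641.

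Only fold changes without a call turned their sign. Day 2 against day 1, Tpx2 was at 0.04 with array 1 alone and 0.08 with quantile normalization, and Cdk1 at 0.03 with array 2 alone and 0.03 with quantile normalization. Day 5 against control, Tpx2 was at -0.01 with array 2 alone, and with quantile normalization Cks2 was at -0.03 and Cdca8 at -0.02. With a mouse left out, the day 5 against control values ran from -0.0 to 0.22 for Cks2, -0.05 to 0.08 for Tpx2, -0.06 to 0.06 for Nusap1 and -0.05 to 0.23 for Cdca8. The day 2 against day 1 values ran from -0.02 to 0.37 for Cks2, -0.15 to 0.15 for Tpx2, -0.12 to 0.1 for Cdk1 and -0.27 to 0.02 for Cdca8.

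The replicate block called 5, 6 and 0 of the 6 genes on days 1, 2 and 5 against control, as without it, and 986, 980 and 124 features. Between days it called 1 (day 2 against day 1), 5 (day 5 against day 1) and 6 (day 5 against day 2) of the 6. Deviations of same-numbered mice correlated on average at -0.074, 0.028, 0.108, 0.031 and 0.054 for numbers 1 to 5, over 2979 features. Among mice of the other groups, 8 of 20 mice correlated best with one of their own number. This count was not tested against chance, so it does not settle whether the numbers pair the mice. The main fit did not pair them.

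The 5 mice per group, blank values in 40.7% to 69.7% of probes per array, an unstated log base and an unknown normalization limit these results. Signal over background is not known.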
